A study of Mus musculus with 42 samples.

Results

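Tnf, Lta, Tnfsf8, Tnfrsf4 and Tnfrsf9 are 5 genes of the tumour necrosis factor (TNF) ligand and receptor family. They were taken by gene symbol from the RNA-seq tables of CD4 T cells with and without Trmt61a, which together list 2828 different genes. Trmt61a encodes the catalytic subunit of the enzyme that methylates adenosine 58 of tRNAs. The series holds 42 samples, of which the 16 RNA-seq libraries at 0, 3, 6 and 48 h were used, with 2 libraries per genotype and time; 2 wild-type RNA-seq libraries of 18 h and the tRNA, m1A and RiboTag libraries were not analysed here. All 16 libraries came from spleens of C57BL/6 mice at 8 weeks of age. Their genotype is given as wild type (WT) or Trmt61a cKO, a conditional knockout, and the driver of that knockout is named only for the RiboTag mice, where Cd4Cre acted on a floxed allele. In each group a kit served to isolate naive CD4 T cells, which were then activated for the stated time in X-VIVO medium on plates coated with antibodies to CD3 (5 µg/ml) and CD28 (2 µg/ml), and the 0 h libraries carry the same treatment label. Whether the 2 libraries of a group come from separate animals is not stated, so every p-value measures the spread between these libraries, which may be technical.

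TNF family ligands are mostly trimers, on the cell surface or shed from it, that cluster receptors of the TNF receptor superfamily. The receptors without a death domain recruit TRAF adapters and activate NF-κB, and those with a death domain can also start cell death. In CD4 T cells, Tnf and Lta are cytokine genes that are switched on within hours of T cell receptor signalling. Tnfrsf4 (OX40) and Tnfrsf9 (4-1BB) are costimulatory receptors induced on activated T cells, also carried by regulatory T cells, and Tnfsf8 encodes CD30 ligand.

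The start regions of the genes are shown first, so that the letters upstream of the 2 cytokine genes that were lower in the cKO at 3 h can be set beside those of the 2 receptor genes that were higher. RefSeq windows of 250 bases before to 50 bases after an annotated start were matched to 5 of the 5 genes, in build GRCm38.p6. There were 6 windows in all, 2 of them for Tnfrsf9. For Lta, Tnfsf8 and Tnfrsf4 the RefSeq gene reaches further upstream than the start its window is set on. Capitals mark GGAAA, the core bound by NFAT factors, on either strand (TTTCC where it lies on the opposite strand).
Tnf, chr17:35201958-35202257, minus strand: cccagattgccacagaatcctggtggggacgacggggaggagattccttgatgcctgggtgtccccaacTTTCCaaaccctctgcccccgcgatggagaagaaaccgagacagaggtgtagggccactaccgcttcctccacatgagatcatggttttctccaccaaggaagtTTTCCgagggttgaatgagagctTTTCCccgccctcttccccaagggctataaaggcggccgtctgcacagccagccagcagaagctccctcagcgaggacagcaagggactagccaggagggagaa
Lta, chr17:35205302-35205601, minus strand: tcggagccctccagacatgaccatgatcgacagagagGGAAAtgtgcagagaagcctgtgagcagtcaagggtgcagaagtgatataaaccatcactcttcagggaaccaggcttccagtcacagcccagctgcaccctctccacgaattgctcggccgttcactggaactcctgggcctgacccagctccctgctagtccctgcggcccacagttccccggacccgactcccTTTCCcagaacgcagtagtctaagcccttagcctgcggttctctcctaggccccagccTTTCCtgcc
Tnfrsf4, chr4:156013445-156013744, plus strand: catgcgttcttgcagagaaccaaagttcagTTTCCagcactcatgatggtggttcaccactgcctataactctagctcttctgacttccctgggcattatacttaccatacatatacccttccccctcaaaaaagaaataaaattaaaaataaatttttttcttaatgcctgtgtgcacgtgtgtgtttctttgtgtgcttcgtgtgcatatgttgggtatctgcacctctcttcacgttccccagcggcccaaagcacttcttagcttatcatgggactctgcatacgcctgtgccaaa
Tnfrsf9, chr4:150919905-150920204, plus strand: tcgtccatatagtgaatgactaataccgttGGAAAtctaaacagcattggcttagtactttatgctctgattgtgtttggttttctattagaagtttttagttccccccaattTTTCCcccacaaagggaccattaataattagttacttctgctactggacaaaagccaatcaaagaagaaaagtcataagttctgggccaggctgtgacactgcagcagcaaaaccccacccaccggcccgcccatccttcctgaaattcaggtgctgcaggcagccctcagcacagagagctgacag
The Tnf and Lta windows held 3 GGAAA each, the Tnfrsf4 and Tnfsf8 windows 1 each, and the windows of Tnfrsf9 held 2 and 3. Such a match was present in 61.3% of all 32851 promoter windows, with a mean of 1.01 per window. TATAAA on the gene's own strand was found 1 time in the Tnf window and 1 time in the Lta window, and in none of the 4 other windows. It was present in 8.32% of all windows, and its distance from the start was not compared. The AP-1 motif TGANTCA (both strands, in 7.81% of all windows) occurred 1 time, in the second Tnfrsf9 window at chr4:150927749-150928048. That window also held 3 overlapping matches to the κB consensus (both strands, in 4.51% of all windows), which the 5 other windows did not hold. TGACGTCA (both strands, in 1.79% of all windows) was in none of the 6. These matches describe the letters of the windows and are not measured binding sites.

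Tnf and Lta lie side by side on chromosome 17. In the files Tnf (ENSMUSG00000024401) spans chr17:35199381-35202007 and Lta (ENSMUSG00000024402) spans chr17:35203165-35205351, both on the minus strand. By the RefSeq annotation 1157 bases separate them, and Ltb, the gene of lymphotoxin beta, lies 3061 bases beyond Tnf. A microRNA gene of 83 bases, Mir6974, lies inside Lta. The other 3 genes are on chromosome 4: Tnfsf8 (ENSMUSG00000028362) at chr4:63831308-63861347 on the minus strand, Tnfrsf4 (ENSMUSG00000029075) at chr4:156013843-156016612 and Tnfrsf9 (ENSMUSG00000028965) at chr4:150914562-150946102 on the plus strand. Tnfrsf4 shares 16 bases with the next gene, Sdf4. How the authors' counting treated such shared bases and read strand is not given in the sources used here.

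The values are scaled read counts, that is, the reads of a gene divided by 1 size factor per library, and each table was scaled on its own, so that levels at different times are not compared. The tables list genes with an unadjusted p under 0.05, and a gene absent from a table was not tested here at that time. A gene is called when its adjusted p in the authors' deposited table is under 0.05. By that rule 3 of 24502 genes were called at 0 h, 253 of 15399 at 3 h (1.64%), 83 of 16602 at 6 h (59 higher, 0.355%, and 24 lower, 0.145%) and 236 of 9940 at 48 h. These totals are the genes behind the authors' adjustment, inferred from the deposited p and adjusted p. Listed genes set aside as outside it, 89 at 3 h, 27 at 6 h and 93 at 48 h, do not count in the shares listed. Lists of named genes count every gene looked up, whether or not it was in these totals. The reads over the listed genes ranged from 423873 to 4482346 per library, and the depth of the whole libraries is unknown. Trmt61a was lower in all 8 cKO libraries: its cKO mean was 0.0785 times the WT mean at 0 h, 0.103 times at 3 h, 0.106 times at 6 h and 0.0430 times at 48 h. Genes of other organs stood out in some libraries. The 8 pancreatic acinar genes looked up, a list written after such genes had been seen, summed to 895 and 6478 scaled counts in the cKO libraries at 3 h against 3.87 and 11.9 in WT, and 7 submandibular gland genes summed to 2.94 and 6.31 against 7348 and 665. Of the 10 naive CD4 T cell genes looked up, none was listed at 0 h, and Cd4 and the Cd3 genes were listed at no time, so these tables give no level for them.

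Tnf encodes TNF, the founding cytokine of the family. At 3 h the cKO libraries held 6696 and 7874 scaled counts of Tnf, and the WT libraries 10672 and 11112. Both cKO libraries were below both WT libraries, and the group means were 7285 ± 833 and 10892 ± 311 (SD, n = 2). The log2 fold change of cKO over WT was -0.58 with an adjusted p of 0.00605 in the authors' deposited table, so Tnf was called lower, a call that 0.5% of the genes at 3 h received in that direction. Tnf was the 43rd most abundant of the 1091 genes listed at that time by mean scaled count. Per kilobase of gene model, its level at 3 h was 4445 ± 508 in the cKO against 6646 ± 190 in WT (SD, n = 2).

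At 0 h the 2 cKO libraries differed widely in Tnf. The cKO libraries held 133 and 25.1 scaled counts, from 135 and 22 reads, and the WT libraries 207 and 209, from 222 and 227 reads. Both cKO values were below the WT values, but the cKO libraries differed from each other more than the first of them differed from WT. The authors' deposited table gives a log2 fold change of -1.39 with a p of 0.0128 and an adjusted p of 0.999, so Tnf was not called at 0 h, where 0.0122% of genes were called and 1.57% were listed. In DESeq2 refits the log2 difference was -0.65 without the second cKO library, and without the first it was -3.05 with an adjusted p of 1.55e-05, so the value and the call rest on which of the 2 is kept. The second cKO library at 0 h also held 674416 reads over the listed genes against 423873 to 441827 in the other 3. Of 11 macrophage, monocyte and dendritic cell genes, 3 were listed at 0 h, C1qa, C1qb and C1qc of the complement C1q complex, and none was called (adjusted p of 0.999 each in the authors' deposited table). C1qa and C1qb overlapped between the groups, C1qc read 625 and 374 in cKO against 1166 and 655 in WT, and the 3 summed to 1992 and 1088 against 3558 and 1838. Macrophages also make Tnf, and the part of these values in that of Tnf was not tested. In bulk libraries such as these, fewer cells of a type and less RNA per cell cannot be told apart.

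Lta encodes lymphotoxin alpha, which is secreted as a trimer or held at the membrane with lymphotoxin beta. Among the 46 family genes looked up it alone was listed at 3, 6 and 48 h, and it was lower in the cKO at each. At 3 h the cKO libraries held 824 and 1026 scaled counts and the WT libraries 1787 and 2227. The means were 925 ± 143 and 2007 ± 312 (SD, n = 2), with no overlap, and the authors' deposited table calls Lta lower with a log2 fold change of -1.12 and an adjusted p of 2.08e-05.

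At 6 h the Lta values were 1223 and 1948 in cKO and 2835 and 3886 in WT. The groups again did not overlap, with means of 1585 ± 513 and 3361 ± 743 (SD, n = 2), but the spread within each group was wider. The log2 fold change in the authors' deposited table was -1.08 with an adjusted p of 0.272, so Lta was not called at 6 h, where 0.5% of genes were called and 4.29% were listed. At 48 h Lta read 2541 and 2446 in cKO against 3143 and 3214 in WT. These libraries lay close together within each group, at 2493 ± 66.7 and 3178 ± 50.3 (SD, n = 2). The authors' deposited table gives a log2 fold change of -0.35 with an adjusted p of 0.0102, which calls Lta lower, as it does 1.54% of genes at 48 h. The TMM rescaling given below took its factors from the listed genes alone, all selected for a low p. At 48 h 758 of these were lower and 437 higher, so the move it gives cannot be told from that selection. DESeq2 on recovered reads gave -0.35 ± 0.0954 (SE). Its adjusted p was 0.118 without the first WT library and 0.171 without the second, and TMM rescaling, which moves the median of all listed genes at 48 h by 0.16, left a limma log2 difference of -0.19 with an adjusted p of 0.101.

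Per kilobase, Lta at 3 h came to 669 ± 104 in the cKO against 1451 ± 225 in WT (SD, n = 2), both under the level of Tnf in the same libraries. The ratio of Lta to Tnf per length was 0.146 and 0.154 in the cKO libraries and 0.198 and 0.238 in the WT libraries. Lta was thus the more strongly reduced of the 2 neighbouring genes in these libraries, at 0.461 times its WT mean against 0.669 for Tnf. An exact permutation test (two-sided) of the ratio gave p = 0.333, the smallest value that 2 against 2 libraries allow; 8 ratios were computed in all, and adjustment over them cannot give a smaller p. The ratio of Ltb to Tnf overlapped between the groups, at 0.288 and 0.437 in cKO and 0.401 and 0.351 in WT. Ltb itself, the partner of Lta in the membrane form, read 1784 and 3182 in cKO against 3962 and 3605 in WT at 3 h and was not called, with an adjusted p of 0.562 in the authors' deposited table.

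Tnfsf8 encodes CD30 ligand, a membrane ligand of activated T cells. It was listed at 48 h and not at the other times. The cKO libraries held 8960 and 7137 scaled counts and the WT libraries 3721 and 4776. Each cKO library was above each WT library, with means of 8049 ± 1289 and 4249 ± 746 (SD, n = 2). The authors' deposited table gives it a log2 fold change of 0.92 with an adjusted p of 0.00999, so Tnfsf8 was called higher, as were 0.835% of genes at 48 h. The cKO mean was 1.89 times the WT mean. The standard error of the log2 difference depended on the fit, at 0.186 with limma and 0.390 with DESeq2 and the replicate block. DESeq2 on recovered reads gave 0.92 ± 0.123 (SE), and its adjusted p passed 0.05, at 0.0706, without the first cKO library. With limma the call was lost without any 1 of the 4 libraries, at adjusted p from 0.0587 to 0.194. Per kilobase, Tnfsf8 at 48 h stood at 2114 ± 339 in cKO, above Lta at 1803 ± 48.2, whereas in WT it stood at 1116 ± 196, below Lta at 2298 ± 36.4 (SD, n = 2). The per-length ratio of Tnfsf8 to Lta was 1.28 and 1.06 in the cKO libraries and 0.430 and 0.540 in WT, which follows from a gene called higher set over a gene called lower. The receptor of CD30 ligand, Tnfrsf8, was not listed at any time.

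Tnfrsf4 encodes OX40, which prolongs the division and survival of activated T cells. It was listed at 3 h and not at the other times. The cKO libraries held 1583 and 1485 scaled counts and the WT libraries 1081 and 1013. The means were 1534 ± 69.5 and 1047 ± 48.3 (SD, n = 2), and the cKO mean was 1.47 times the WT mean. The authors' deposited table calls it higher, with a log2 fold change of 0.55 and an adjusted p of 0.0259, as it does 1.14% of genes at 3 h.

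Tnfrsf9 encodes 4-1BB, another TRAF-binding costimulatory receptor. It was listed only at 3 h, where it read 2552 and 2603 in cKO and 1869 and 1829 in WT. The libraries of a group differed from each other by far less than the groups did, with means of 2577 ± 36.7 and 1849 ± 28.2 (SD, n = 2). The cKO mean was 1.39 times the WT mean, and the authors' deposited table calls it higher with a log2 fold change of 0.48 and an adjusted p of 0.0221.

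**Figure D1:**
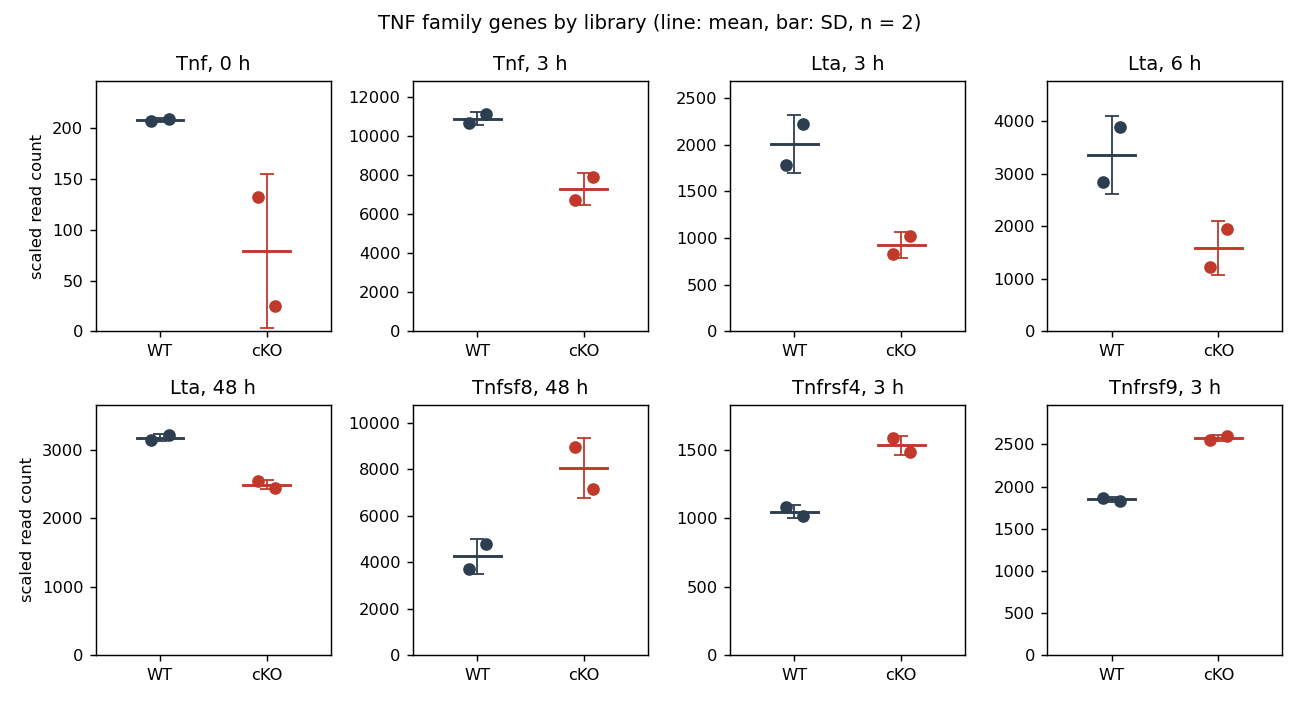
Scaled read counts of the 5 genes at each time at which they are listed (y axis, linear from 0, scaled separately in each panel), for WT and cKO libraries; points are the 2 libraries of a group, lines the mean and bars the SD (n = 2). The groups do not overlap in any of the 8 panels: Tnf and Lta are lower in the cKO, and Tnfsf8, Tnfrsf4 and Tnfrsf9 are higher. Each gene is shown only where it was listed for an unadjusted p under 0.05, which favours such separation. The share of all listed genes without overlap was not computed.

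Set beside the cytokine genes in the same library, the receptor genes can be described by ratios, which restate the calls above and add no evidence to them. The per-length ratio of Tnfrsf9 to Tnfrsf4 at 3 h was 0.808 and 0.879 in the cKO libraries and 0.867 and 0.906 in WT, so that the groups overlapped. The ratio of Tnfrsf9 to Tnf was 0.229 and 0.199 in cKO against 0.105 and 0.0991 in WT. The ratio of Tnfrsf4 to Tnf was 0.284 and 0.226 against 0.122 and 0.109. These ratios were 2.09 and 2.21 times as high in the cKO on the group means, and relative to Lta the receptors were 3.02 times (Tnfrsf9) and 3.18 times (Tnfrsf4) as high. A ratio within a library does not depend on its size factor, but genes called higher over genes called lower had to give a higher ratio in the cKO.

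**Figure D2:**
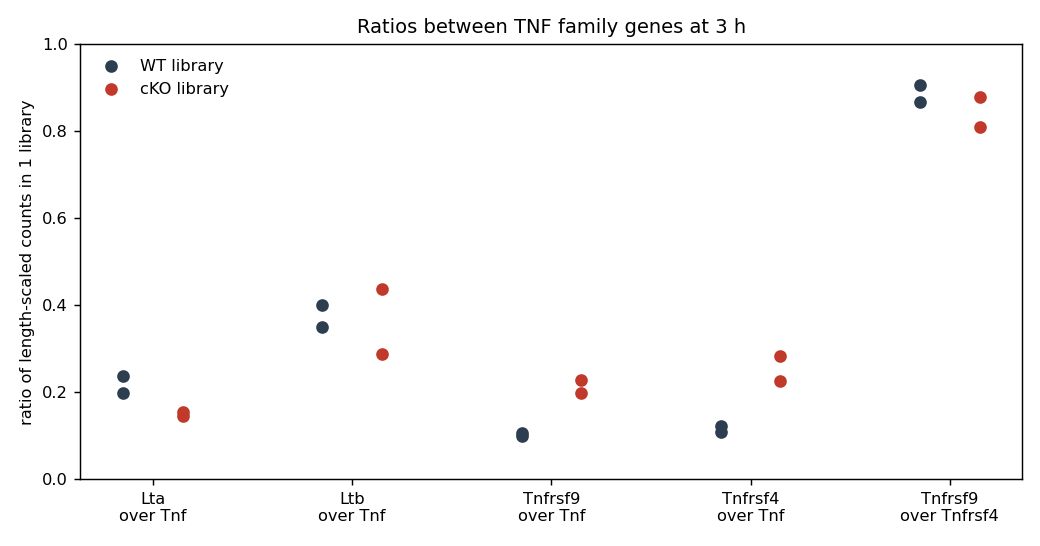
Ratios of length-scaled counts between TNF family genes at 3 h (y axis, linear, no unit), with 1 point per library in WT and cKO. Lta over Tnf is lower in both cKO libraries, the receptor to Tnf ratios are higher in both, and Ltb over Tnf and Tnfrsf9 over Tnfrsf4 overlap between the groups.

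Genes of regulatory T cells, which carry OX40 and 4-1BB, were higher in the same cKO libraries at 3 h. Of 8 such genes, 5 were listed, all higher in the cKO, and Ctla4, Foxp3 and Ikzf2 were called, at a time when 6.51% of all genes were listed and 1.14% called higher. Foxp3, the defining transcription factor, read 492 and 525 in cKO against 204 and 221 in WT. The 5 genes summed to 4187 and 3814 in cKO and 2054 and 1893 in WT. Of 12 genes of CD8, NK and innate-like T cells, 7 were listed, all higher, with sums of 1919 and 2006 against 809 and 674. Ccl5 and Gzma were called among them, whereas Cd8a and Cd8b1 were not listed at 3 h. The part of these cell types in the receptor levels was not tested. The T cell genes Lat and Il7r, the 2 listed of 10 naive CD4 T cell genes, summed to 11231 and 13681 in cKO and 21413 and 15943 in WT, and neither was called. Lat read 8934 and 10196 in cKO against 15808 and 12539 in WT. Il7r overlapped between the groups, at 2297 and 3485 in cKO and 5605 and 3403 in WT.

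How firmly the 3 h calls stand depends on the test. The authors called 4 of the 5 genes at 3 h, where 1.64% of all genes were called. The 5 were chosen with earlier results of these data known, so this count is a description. DESeq2 was run on the recovered reads of the 1091 listed genes, with Benjamini-Hochberg adjustment over those that its default filtering kept. It also called all 4, with log2 fold changes of -1.12 ± 0.257 for Lta, -0.58 ± 0.172 for Tnf, 0.55 ± 0.206 for Tnfrsf4 and 0.48 ± 0.174 for Tnfrsf9 (SE). The edgeR quasi-likelihood test called Lta and Tnf, at adjusted p of 0.0465 and 0.0480, and left Tnfrsf4 and Tnfrsf9 at 0.0530 each. With limma on log2(value + 1) Lta was called, at an adjusted p of 0.0497, and the others ranged from 0.0970 to 0.113. Of the 1091 listed genes, all selected for a low p, DESeq2 called 327, limma 301 and edgeR 270. A refit call is therefore common among the listed genes and adds little to the authors' call. Leaving out any 1 of the 4 libraries lowered the number called to 0 with limma, and with DESeq2 to 1 without the first cKO library, 2 without the second, 1 without the first WT library and 0 without the second. None of the 17 alternatives turned a direction, which is no sign of stability, because groups that do not overlap keep their direction when 1 library is left out.

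**Figure D3:**
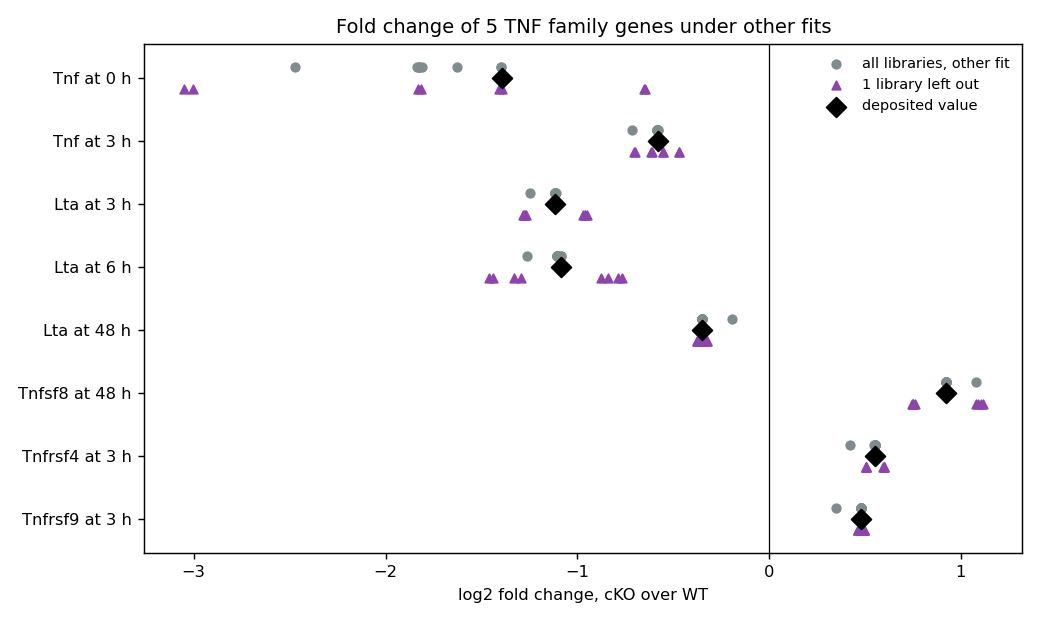
Log2 fold change of cKO over WT (x axis) of each gene and time (rows) in the authors' deposited table (diamonds), in other fits with all libraries (circles) and in fits with 1 library left out (triangles). The points of each row lie on 1 side of 0, as groups that do not overlap require when a library is left out, and Tnf at 0 h has the widest range, from -3.05 to -0.65.

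Lta was listed at enough times to ask whether its difference between genotypes changed. In limma fits of pairs of tables on log2(value + 1), the cKO effect on Lta at 48 h was smaller than at 3 h by 0.77 ± 0.228 on the log2 scale (SE), with an adjusted p of 0.0433 over the 123 genes listed at both times. Leaving out a library gave 0.61 to 0.93, and the adjusted p passed 0.05 for 6 of the 8 libraries, both of cKO and both of WT at 48 h, the first cKO and the second WT library at 3 h. The effects at 6 and 3 h differed by 0.012 ± 0.586, with a limma adjusted p of 0.998 over 345 genes, and at that error a difference of either sign could not be resolved. The effects at 48 and 6 h differed by 0.75 ± 0.512, with a limma adjusted p of 0.265 over 61 genes. For Tnf the effect at 3 h was less negative than at 0 h by 1.24 ± 1.04, with a limma adjusted p of 0.529 over 46 genes. Without the first cKO library at 0 h that difference was 2.42, at an adjusted p of 0.0120, and without the second it was 0.063. Genes in such a comparison had been selected for a difference at each of the times. Over all genes called at each time, the median absolute log2 fold change was 1.48 at 3 h and 0.445 at 48 h. The smaller effect on Lta at 48 h is thus not shown to be particular to Lta.

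The other ligands and receptors were looked up in the same tables. Of 46 family genes (18 ligands and 28 receptors), 16 were listed at 1 time or more, 8 of each kind. At 3 h, 5 of the 41 family genes other than the 5 were listed and none was called by the authors, at 6 h 4 were listed and 1 called, and at 48 h 6 were listed and 1 called. The 1 of 41 is 2.44%, against 0.5% of all genes at 6 h and 2.37% at 48 h. The bases differ, because the 41 include every family gene looked up and the others only genes behind the authors' adjustment. At 3 h the listed receptors were Tnfrsf4, Tnfrsf9, Cd40 and Fas, higher, and Tnfrsf19, lower. The listed ligands were Tnf, Lta and Ltb, lower, and Tnfsf10, higher. Those listed had by construction an unadjusted p under 0.05, as had 6.51% of genes at 3 h, and the median log2 fold change was 0.48 over the 9 family genes and 0.31 over all genes listed.

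Cd40, the receptor of CD40 ligand, is best known on B cells and other antigen-presenting cells. At 6 h it read 302 and 225 in cKO against 79.7 and 67.3 in WT, and the authors' deposited table calls it higher with a log2 fold change of 1.85 and an adjusted p of 0.0229. At 3 h it read 238 and 218 against 152 and 99.6 and was not called, with an adjusted p of 0.379 in the authors' deposited table. Of 11 B cell genes looked up, 3 were listed at 6 h, 27.3% against 4.29% of all genes. Igkc and Blnk were lower and H2-Eb1 higher. Igkc alone was called, 9.09% of the 11 against 0.5% of all genes. It read 874 and 1167 in cKO against 2684 and 3239 in WT. The part of B cells in the Cd40 values was not tested. Cd40lg, the ligand that helper T cells present to CD40, overlapped between the groups at 6 h, with 3149 and 4953 in cKO and 10011 and 4715 in WT.

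Tnfsf10, which encodes the death ligand TRAIL, was low and uneven. At 3 h it read 143 and 81.0 in cKO against 50.3 and 27.9 in WT, and at 6 h 378 and 58.0 against 33.3 and 29.4. It was called at neither time, with adjusted p of 0.250 and 0.0886 in the authors' deposited tables, and the value at 6 h rests on the first cKO library. Its mouse death receptor Tnfrsf10b was called higher at 48 h, at 930 and 655 in cKO against 510 and 516 in WT, with a log2 fold change of 0.63 and an adjusted p of 0.0235 in the authors' deposited table. Tnfsf4, the ligand of OX40, read 696 and 415 against 318 and 364 at 48 h and was not called, with an adjusted p of 0.0666 in the authors' deposited table.

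**Figure D4:**
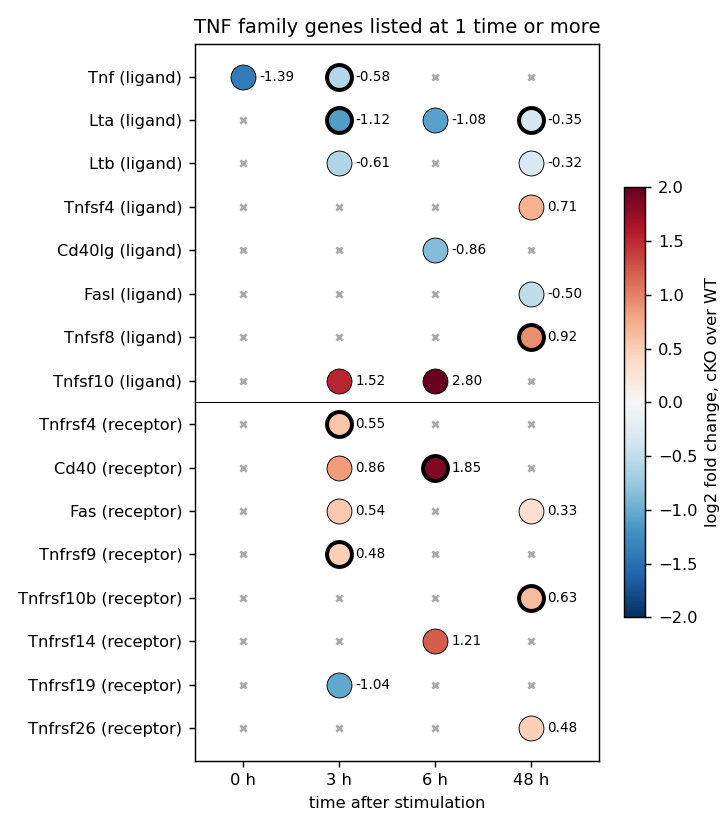
Log2 fold change of cKO over WT from the authors' deposited tables (colour, limited to -2 to 2, and printed beside each circle) for the 16 TNF family genes listed at 1 time or more, by time after stimulation. Thick outlines mark an adjusted p under 0.05 and crosses mark a gene not listed at that time; Lta alone has circles at 3, 6 and 48 h.

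The genes of the signalling machinery downstream of the receptors were also looked up. Of 25 adapter and enzyme genes, 3 were listed at 3 h, Ripk1, Traf4 and Tnfaip3, all at higher values in the cKO, and none was called; that is 12% listed against 6.51% of all genes. At 48 h Traf1 and Cflar were listed at higher and Casp8 at lower values in the cKO, and none was called. That is again 12% listed, against 11.1% of all genes. None of the 18 genes of NF-κB subunits, inhibitors and kinases was listed at 3 h. At 6 h Malt1 and Rel were listed, 11.1% of the 18 against 4.29% of all genes. Malt1 read 13081 and 11259 in cKO against 26447 and 15371 in WT, and Rel 7031 and 10191 against 20046 and 10901. Both had lower values in the cKO and neither was called, with adjusted p of 0.955 and 0.992 in the authors' deposited table. At 48 h 5 of the 18 were listed, all higher in the cKO, and 3 were called. Malt1, the protease that links the antigen receptor to NF-κB, read 3779 and 4121 against 2711 and 3081, the opposite sign to its values at 6 h. Nfkb2, which encodes p100 and p52 of the noncanonical pathway that OX40 and 4-1BB can feed, read 11038 and 9524 against 8423 and 8036, and Nfkb1 24416 and 21261 against 19336 and 18198. Their adjusted p values in the authors' deposited table were 0.00118, 0.0193 and 0.0380. Over all genes behind the 48 h adjustment 2.37% were called, and the median log2 fold change of the 5 was 0.28 against -0.23 for all genes listed at that time.

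Of 21 NFAT, AP-1 and early T cell receptor response genes, 2 were listed at 3 h, Irf4 at higher and Egr3 at lower values in the cKO, and neither was called. That is 9.52% listed against 6.51% of all genes. Nr4a1, Fos and the NFAT genes were not among those listed at 3 h. At 6 h Il2 read 1960 and 1501 in cKO against 3688 and 2561 in WT and Il2ra was the other listed gene, with neither called. The listed share at 6 h was 9.52% against 4.29% of all genes. At 48 h 6 were listed, 28.6% of the 21 against 11.1% of all genes. Egr1 and Egr2 were called higher and Jund was called lower, 14.3% of the 21 against 2.37% of all genes. Of 10 genes that act on the decay of cytokine mRNAs, Zc3h12d, a relative of the Regnase-1 endonuclease, was alone in being listed. It read 1336 and 1125 in cKO against 940 and 956 in WT at 3 h and was not called. At 48 h it read 2882 and 2648 against 1905 and 2114 and was called higher, with an adjusted p of 0.00144 in the authors' deposited table. This 1 of 10 genes is 10% listed, against 6.51% of all genes at 3 h and 11.1% at 48 h.

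**Figure D5:**
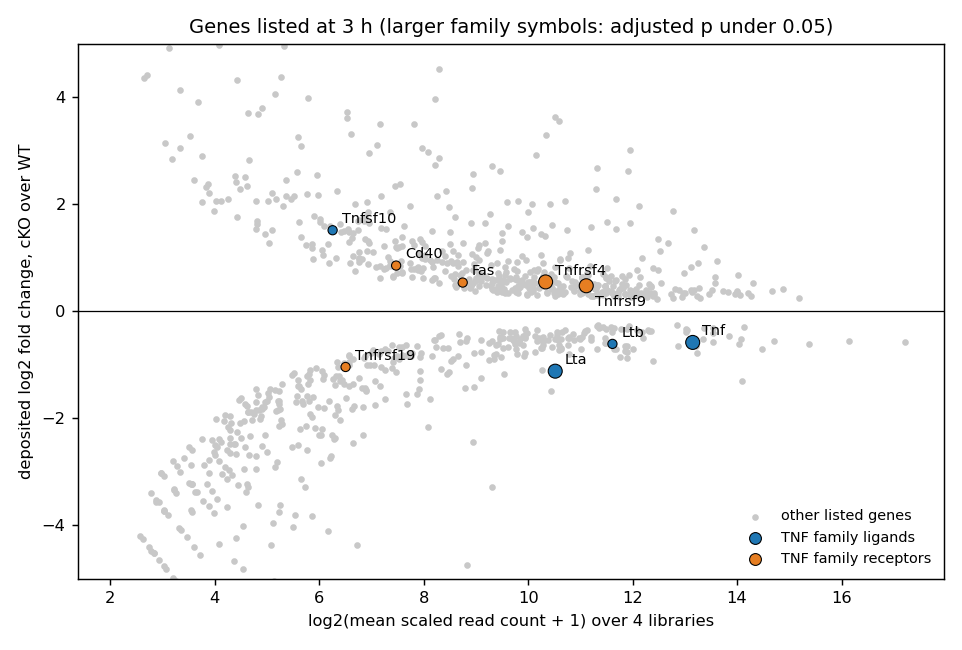
Genes listed at 3 h by mean scaled count over the 4 libraries (x axis, log2(mean + 1)) and log2 fold change of cKO over WT in the authors' deposited table (y axis, cut at -5 and 5, which leaves out 116 genes). Blue marks TNF family ligands and orange receptors, with larger symbols for an adjusted p under 0.05; Tnf lies far to the right at -0.58, and Tnfrsf4 and Tnfrsf9 lie above 0 at 0.55 and 0.48.

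Genes with patterns most like those of Tnf and Lta were sought by Pearson correlation of log2(value + 1), centred on each table's mean, as a description with no test. The libraries share their genotype contrast, and every gene compared was listed at the same times as the member. For Lta, over 12 libraries at 3, 6 and 48 h and 32 genes, the 3 most alike were Cd24a (r = 0.847), Trmt61a (0.759) and Ulbp1 (0.753). Cd24a, which encodes a surface glycoprotein, was listed as lower in the cKO at all 3 times, with log2 fold changes of -0.53, -0.90 and -0.42 in the authors' deposited tables, of which the first was called. Of 37 genes listed at 3, 6 and 48 h, 4 were lower at each, Lta, Cd24a and Trmt61a among them. For Tnf, over 8 libraries at 0 and 3 h and 37 genes, the 3 most alike were Ubald2 (0.758), Trmt61a (0.671) and the pseudogene Rps26-ps1 (0.551). Ubald2 had opposite signs at the 2 times, at -0.64 and 0.38 on the log2 scale of the authors' deposited tables.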

How the data were processed

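RNA-seq of 16 libraries was used. The submitters' processing notes name featureCounts 1.5.0-p3, HISAT2 2.0.5, Bowtie2 2.4.1, Trim Galore 0.6.6 and build mm10, with no assay given for each. Per library the authors deposited a signal: in all 16 columns 100% of values above 0 were whole multiples of 1 step (tolerance 0.01), that is, gene reads over a size factor. At 0 and 48 h, and in 1 library at 3 h, few low values bear on that step, so the read counts recovered there are less certain. The deposited tables also give a log2 fold change and p-values before and after adjustment, by a test not named in the sources used here, and hold genes with an unadjusted p under 0.05. Genes were called at the authors' adjusted p under 0.05. Means and SDs were computed per group of 2.

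Refits used the listed genes, already selected for low p: limma 3.58.1 on log2(value + 1), and edgeR 4.0.16 (quasi-likelihood) and DESeq2 1.42.0 on recovered reads with the deposited scaling, in R 4.3.3. Adjustment was by Benjamini-Hochberg over listed genes, and for DESeq2 over those that its default filtering kept. The limma, edgeR and DESeq2 fits and the limma test of a difference between times were run on simulated counts. These had the same dispersion for every gene and most genes unchanged, unlike the listed genes. TMM rescaling and the replicate block were not simulated. How the refits behave on genes selected for low p was thus not tested. Alternatives were pseudocounts of 0.5 and 10, a mean of at least 10, TMM rescaling, a replicate block, a stricter adjusted p of 0.01 and leaving out each library. Ratios within libraries were compared by exact permutation tests.

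Named genes were the 5, Trmt61a, at most 4 per list and table with the lowest adjusted p, and the 3 of most similar pattern to a gene listed at 2 times or more; genes named as not listed, and the pancreatic and submandibular lists, were chosen after values were seen. The 5 genes, the lists and the motifs were chosen with earlier results of these data known, so counts over them are descriptions. RefSeq sequences and neighbours are of GRCm38.p6. RiboTag-seq, m1A-seq, tRNA-seq and the WT libraries of 18 h were not used.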

Additional observations from a re-analysis of the deposited data

Results flagged for a closer look

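The cKO effect on Lta differed between 48 h and 3 h in a limma test of the difference itself. The log2 fold change was less negative at 48 h by 0.77 ± 0.228 (SE), with an adjusted p of 0.0433 over the 123 genes listed at both times. At 3 h Lta stood at 0.461 times its WT mean and at 48 h at 0.784 times. The genes compared had been selected for a difference at each time. Over all genes called, the median absolute log2 fold change was 1.48 at 3 h and 0.445 at 48 h. The difference is thus not shown to be particular to Lta. Lta was lower in both cKO libraries than in both WT libraries at each of the times. Leaving out 1 library moved the value between 0.61 and 0.93, and the adjusted p was above 0.05 for 6 of the 8 libraries left out.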

How the results depend on the processing

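Over 136 alternatives to the 8 gene and time results, 0 turned a direction, which groups that do not overlap fix in part. The authors called 1.64% of all genes at 3 h and 2.37% at 48 h. Among listed genes, limma at a pseudocount of 1 called 301 of 1091 at 3 h and 528 of 1195 at 48 h. These counts were 270 and 1118 with edgeR, and 327 and 789 with DESeq2. The number of the 5 genes called moved. At 3 h it was 4 by the authors' adjusted p under 0.05, 2 under 0.01, 2 with edgeR, 1 with limma at a pseudocount of 1 or 10 or with TMM rescaling, 0 with limma at a pseudocount of 0.5 or a mean of at least 10, and 0 to 2 without a library. At 48 h it was 2, and 1 under 0.01 or with TMM rescaling, and 0 to 2 without a library. At 0 h it was 0, and 0 to 1 without a library. At 6 h it was 0 in every alternative run; all 740 listed genes there gave 0 calls with edgeR, 305 with an unadjusted p under 0.05, and 136 calls with DESeq2. TMM rescaling moved the median log2 fold change of listed genes by -0.66, -0.13, -0.16 and 0.16 at the 4 times in order, and Lta at 48 h from -0.35 to -0.19. Its factors came from the listed genes alone, all selected for a low p, so these moves cannot be told from that selection. Over its 17 alternatives the adjusted p ranged from 0.000180 to 0.187 for Lta, 0.00509 to 0.230 for Tnf, 0.0309 to 0.302 for Tnfrsf4 and 0.0261 to 0.273 for Tnfrsf9 at 3 h, and from 1.23e-11 to 0.194 for Tnfsf8 and 0.00228 to 0.194 for Lta at 48 h.

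Libraries of the groups share a replicate number and nothing more in the labels. Their deviations correlated by 0.0403, -0.0936, 0.0324 and 0.132 over listed genes at 0, 3, 6 and 48 h. With the replicate block the number of the 5 called was 0 with limma and 1 with DESeq2 at 3 h, and the same at 48 h, where all listed genes called fell from 528 to 61 with limma. The difference of the Lta effect between 48 and 3 h stayed at 0.77 with the replicate block, at an adjusted p of 0.0776. Without a library, it ranged from 0.61 to 0.93 (0.74, 0.79, 0.75 and 0.78 for the 48 h libraries), that between 6 and 3 h from -0.32 to 0.35, with -0.15, -0.32, -0.22 and -0.15 below 0, and that of Tnf between 3 and 0 h from 0.063 to 2.42, called without the first cKO library at 0 h. A lone library was assumed to vary like the other groups. A gene not listed at a time had either no unadjusted p under 0.05 there or no p. With 2 libraries per group its change at that time remains unknown.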
